A study of Mus musculus with 24 samples.

Results

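The NR4A receptors are a family of nuclear receptors encoded in the mouse by 3 genes, Nr4a1 (NUR77), Nr4a2 (NURR1) and Nr4a3 (NOR1). All 3 genes were taken by their symbol in the platform annotation. Each had 1 probe set, so that 3 of the 19938 genes with a probe set of a single symbol are described here, and all 3 lay above the filter on dim genes that left 13956 for testing. Their transcripts were measured in tissue of the suprachiasmatic nucleus (SCN), a paired hypothalamic nucleus that paces the body's daily rhythms, from C57/BL6 mice. The labels name no transgene, mutation or drug for any group. The mice had been entrained to 12 h of light and 12 h of darkness and were then kept in darkness. From circadian time (CT) 18, tissue was taken every 2 h until CT 64, and each of the 24 arrays carried equal amounts of RNA from 3 mice. The second cycle, CT 42 to CT 64, and the first cycle, CT 18 to CT 40, hold 12 arrays each and cover the same 12 circadian times, with circadian time 0 being the time at which lights would have come on. The age and sex of the mice were not given in the sources used here.

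NR4A proteins are called orphan receptors because they act without a known classical hormone ligand, and their activity follows the amount of protein made. Their genes are immediate early genes: within minutes of a rise in calcium or cyclic AMP, the kinase-activated factor CREB and its co-activators switch on their transcription without new protein synthesis. In the brain they are induced by neuronal activity, and NR4A2 is also required for the development of midbrain dopamine neurons. NR4A1 and NR4A2 can bind DNA as partners of the retinoid X receptors (RXR), which NR4A3 does not do in the same way.

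The promoters are shown because CREB acts through short sites in them, and they are printed 5′ to 3′ on the gene's own strand, from 250 bases before to 50 bases after the start that RefSeq annotates (build GRCm38.p6). Capitals mark the CRE half-site TGACG or its reverse complement CGTCA. The windows are chr4:48045055-48045354 (plus strand) for Nr4a3, chr15:101266596-101266895 (plus strand) for Nr4a1 and chr2:57123954-57124253 (minus strand) for Nr4a2.
Nr4a3: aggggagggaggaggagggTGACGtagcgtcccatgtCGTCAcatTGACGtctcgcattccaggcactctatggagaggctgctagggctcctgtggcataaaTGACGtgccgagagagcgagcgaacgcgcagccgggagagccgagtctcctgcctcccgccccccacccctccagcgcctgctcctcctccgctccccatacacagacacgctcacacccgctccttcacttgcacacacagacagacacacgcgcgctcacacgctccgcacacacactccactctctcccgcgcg
Nr4a1: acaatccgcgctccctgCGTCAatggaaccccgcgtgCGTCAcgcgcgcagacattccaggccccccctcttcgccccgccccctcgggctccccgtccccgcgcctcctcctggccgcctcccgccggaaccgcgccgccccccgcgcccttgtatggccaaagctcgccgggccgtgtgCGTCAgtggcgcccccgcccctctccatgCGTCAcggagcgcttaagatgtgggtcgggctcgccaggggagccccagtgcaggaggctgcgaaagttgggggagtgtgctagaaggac
Nr4a2: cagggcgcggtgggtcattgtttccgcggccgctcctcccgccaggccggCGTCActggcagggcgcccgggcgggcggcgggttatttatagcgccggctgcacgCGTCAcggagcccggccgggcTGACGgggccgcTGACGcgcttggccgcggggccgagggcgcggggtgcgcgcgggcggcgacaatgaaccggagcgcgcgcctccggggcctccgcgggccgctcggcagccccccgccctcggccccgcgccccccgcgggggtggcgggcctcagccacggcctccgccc
Each of the 3 windows held 4 half-sites on either strand, a number reached by 0.231% of the 32851 windows of the same length in the table, of which 20.8% held at least 1. The half-site contains CG, and the windows compared were not matched for base composition. The share among windows of similar composition was not counted. In Nr4a3 the matches began at -231, -213, -205 and -147 from the start, in Nr4a1 at -233, -213, -69 and -40, and in Nr4a2 at -200, -144, -123 and -111. The full palindromic site TGACGTCA, the E-box CACGTG and the NR4A response element AAAGGTCA, searched on both strands, had no match in these 3 windows and were present in 1.79%, 7.15% and 1.51% of all windows. A match describes letters and does not show that a factor binds there.

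Values are log2 intensities as the authors normalised them, and a difference of 1 is a doubling. Levels were compared within a gene only, since probe sets differ in sensitivity. The tissue label was checked against 13 SCN genes, all of which lay above the filter. Vasopressin (Avp) ranged from 9.79 to 11.6 on the second cycle's arrays and from 10.2 to 11.5 on the first cycle's. The SCN transcription factor Six6 ranged from 7.28 to 8.36 and from 7.56 to 8.41 in the same order. Other tissue was carried along in varying amounts: the mean of 9 anterior pituitary markers lay between 5.81 and 6.57 in the second cycle, against 5.96 to 8.02 in the first. The arrays at CT 40, CT 62 and CT 64 stood apart, with interquartile ranges of 2.48, 2.67 and 2.65 against 2.72 to 2.90 elsewhere. The mean of 1194 olfactory and vomeronasal receptor genes, which brain tissue hardly uses and which is called the array background here, was 0.34, 0.19 and 0.16 above the series mean on them. These narrow-range arrays fall at circadian times 14 and 16. The rhythm tests of Nr4a3 and the differences between day and night are given with and without them. Other results include them unless stated. In pooled tissue, fewer cells that hold a transcript and less transcript per cell cannot be told apart.

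Over both days Nr4a3 had the widest range of the 3, while in the first cycle alone that of Nr4a1 was wider. Its level was highest at circadian time 0 on both days and lowest in the middle of the subjective night. On the 12 arrays of the second cycle the lowest value was 5.68 (CT 64), the median 6.18 and the highest 6.74 (CT 48). On the 12 arrays of the first cycle the lowest was 5.92 (CT 40), the median 6.13 and the highest 6.65 (CT 24). The 2 highest of all 24 arrays were thus those at circadian time 0, and the lowest of each cycle were those at circadian time 16, both of them narrow-range arrays.

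Folded onto 24 h, the mean of the 2 arrays of Nr4a3 was 6.70 at circadian time 0, 6.14 at 2 h, 6.35 at 4 h, 6.36 at 6 h, 6.45 at 8 h and 6.02 at 10 h. Through the subjective night it was 6.09 at 12 h, 6.06 at 14 h, 5.80 at 16 h, 5.91 at 18 h, 6.12 at 20 h and 6.37 at 22 h. The SD between arrays of the same circadian time was 0.11. In the order of levels, 3 of the 11 steps between neighbours exceeded that SD, the step of 0.24 from circadian time 0 to 8 h being the largest, so most neighbouring levels did not differ beyond their spread. The level at 2 h lay below both of its neighbours in time on each day, at 6.15 (CT 50) and 6.12 (CT 26).

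Nr4a1, the founding member and a strongly activity-induced gene, shared the sharp rise at circadian time 0. In the second cycle the lowest value was 6.16 (CT 62), the median 6.40 and the highest 6.83 (CT 48). In the first cycle the lowest was 5.99 (CT 36), the median 6.35 and the highest 6.95 (CT 24). Again the arrays at CT 48 and CT 24 were the 2 highest of the 24, and the ranges of the 2 cycles overlapped over most of their length.

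The mean of the 2 arrays of Nr4a1 was 6.89 at circadian time 0, 6.34 at 2 h, 6.46 at 4 h, 6.42 at 6 h, 6.52 at 8 h and 6.44 at 10 h. In the subjective night it was 6.19 at 12 h, 6.33 at 14 h, 6.12 at 16 h, 6.29 at 18 h, 6.25 at 20 h and 6.55 at 22 h. The SD between arrays of the same time was 0.16, and 1 of 11 steps in the order of levels exceeded it, the step of 0.35 below circadian time 0. Every other neighbouring pair of levels lay within the spread between days.

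Nr4a2, the dopamine neuron factor, varied least. In the second cycle its lowest value was 6.06 (CT 60), the median 6.29 and the highest 6.52 (CT 50). In the first cycle the lowest was 5.97 (CT 32), the median 6.26 and the highest 6.44 (CT 24). At circadian time 8 the arrays of the second and first cycle differed by 0.45 (6.42 and 5.97), nearly as much as the whole range within either cycle.

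The means of Nr4a2 at the 12 circadian times lay between 6.04 (12 h) and 6.39 (2 h). The SD between arrays of the same time was 0.13, and none of the 11 steps in their order exceeded it. At circadian time 0 it had 6.28 at CT 48, near the median of the second cycle, and 6.44 at CT 24, the highest value of the first.

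**Figure D1:**
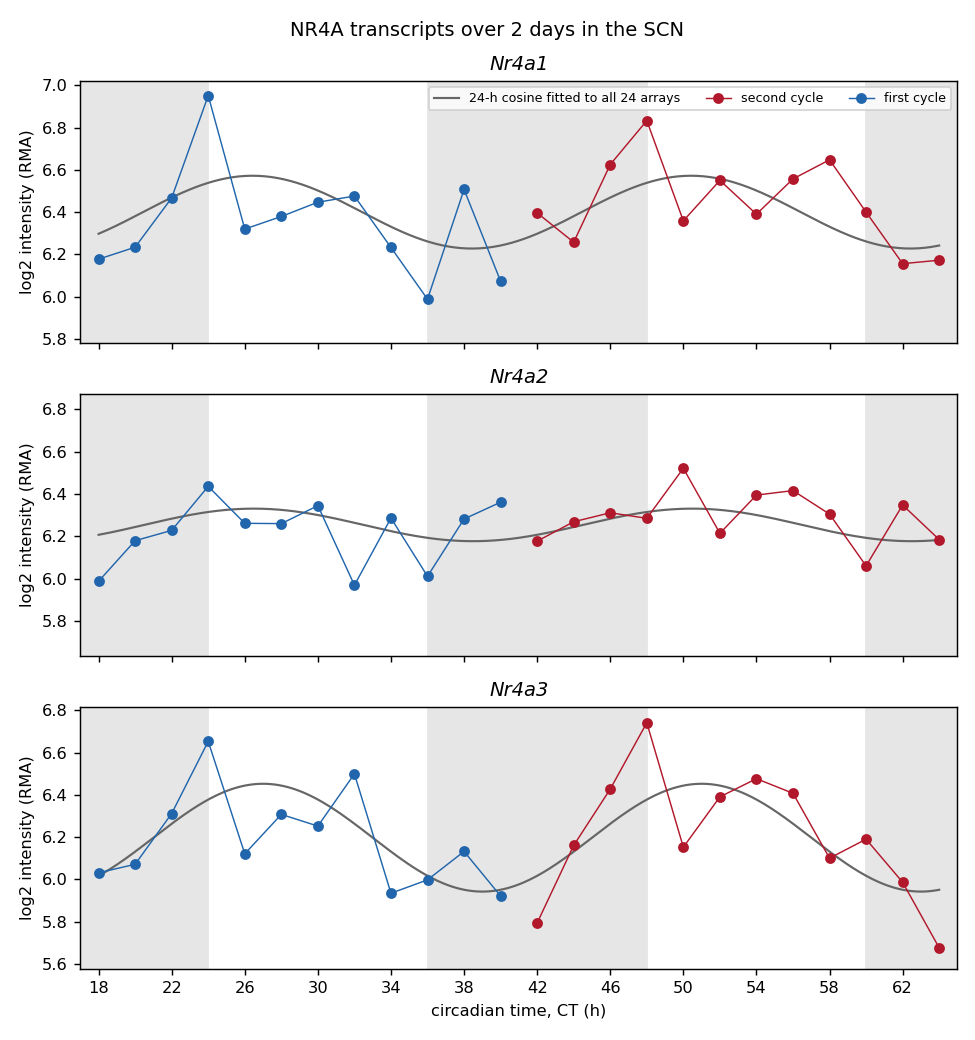
Log2 intensity of Nr4a1, Nr4a2 and Nr4a3 on each of the 24 arrays (points, joined within a cycle) against circadian time, with the 24-h cosine fitted to all arrays and the subjective night shaded. Nr4a1 and Nr4a3 reach their highest values at CT 24 and CT 48, above the fitted curve, while Nr4a2 stays between 5.97 and 6.52.

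**Figure D2:**
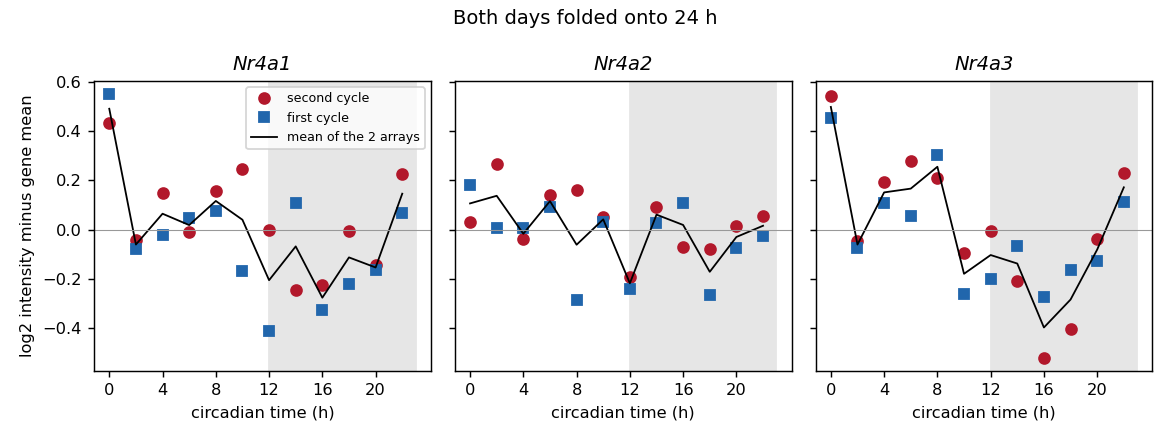
Both days folded onto circadian time 0 to 22 h, as log2 intensity minus the gene's mean; circles are the second cycle, squares the first, and the line joins their means. At circadian time 0 both arrays of Nr4a1 and Nr4a3 lie above those at every other time, and at 2 h both are close to the gene's mean.

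The first comparison asked whether the receptors follow a 24-h rhythm without light. A cosine of 24 h was fitted to each of 13956 genes with limma, whose moderated F test gave p-values adjusted over all of them by the Benjamini-Hochberg method, with 0.05 as the threshold. By this test 1067 genes were called rhythmic, or 7.65%, and of the 3 receptors 1 was. Nr4a3 had an amplitude, from mean to peak, of 0.25 ± 0.05 (SE, 24 arrays), a 1.42-fold change from trough to peak, with its peak at 3.0 ± 0.77 h (adjusted p = 0.0105, limma). Fitted to each cycle alone, its amplitude was 0.31 in the second and 0.20 in the first, with peaks at 3.32 h and 2.50 h.

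Nr4a1 had an amplitude of 0.17 ± 0.05 and a fitted peak at 2.43 ± 1.18 h and did not pass (p = 0.0113, adjusted p = 0.0832, limma). Nr4a2 had 0.08 ± 0.04 with a fitted peak at 2.49 ± 1.90 h (adjusted p = 0.329). The 3 fitted peaks thus lay within 1 h of each other and within their errors, but only that of Nr4a3 belongs to a called rhythm. The call of Nr4a3 held when any single array was left out (adjusted p from 0.00341 to 0.0242). It was lost when the 3 narrow-range arrays were left out (amplitude 0.22, adjusted p = 0.0627). It was also lost when the fit held a term for array background (0.22, adjusted p = 0.0619). Nr4a1 passed when the array at CT 26 was left out (amplitude 0.20, adjusted p = 0.0485).

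A cosine describes a smooth wave, and the values at circadian time 0 lay above it. For Nr4a3 the residuals were 0.36 at CT 48 and 0.28 at CT 24, against a residual SD of 0.19, and for Nr4a1 0.29 and 0.41 against 0.20. When circadian time entered the limma fit as a factor of 12 levels, which assumes no shape, 99 genes were called (0.709%). Nr4a3 was the 24th of 13956 by p (adjusted p = 0.00629), with 0.90 between its highest and lowest level, while by the cosine it was the 192nd. Nr4a1 had 0.77 between its highest and lowest level and did not pass (adjusted p = 0.118), nor did Nr4a2 with 0.36 (adjusted p = 0.428). Both arrays at circadian time 16, the lowest level of Nr4a3, are narrow-range arrays. With the 3 such arrays left out, that level is gone and 11 remain. Nr4a3 then passed with 0.78 between its highest and lowest level (adjusted p = 0.0265). With all 12 levels it missed the threshold when a term for array background was added (adjusted p = 0.056, with 0.95 between highest and lowest level).

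Without both arrays at circadian time 0, a setting added after their values were seen, Nr4a3 was still called by the cosine, its amplitude being 0.21 and its peak at 3.92 h (adjusted p = 0.0261). The amplitude of Nr4a1 was then 0.12, with a peak at 3.97 h (adjusted p = 0.206).

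The size of the rise at circadian time 0 was measured on each day against the mean of the arrays 2 h before and 2 h after. For Nr4a3 it was 0.45 at CT 48 and 0.44 at CT 24, and for Nr4a1 0.34 and 0.56. For Nr4a2 the differences were -0.13 and 0.19. Of the 13956 genes 0.566% rose by at least 0.25 on both days, and 1.2% had their highest array at circadian time 0 in both cycles. Nr4a3 and Nr4a1 did both. This measure was chosen after the values were seen and is a description, with no test. Ordered by the smaller rise of the 2 days, Nr4a3 was the 14th and Nr4a1 the 31st of all genes, and of the genes above them 0 and 3 had their highest array at circadian time 0 in both cycles, the 3 being Nr4a3, Msmp and Ramp1.

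The genes with larger rises on both days included many of another kind. Of the 13 genes above Nr4a3 in this order, 6 are named here as examples, and the others were not sorted by tissue. Prg4 (0.77 at CT 48 and 0.74 at CT 24), Ogn (0.73 and 0.74), Mgp (0.60 and 0.90), Bgn (0.55 and 0.54) and Fmod (0.48 and 0.80) encode extracellular matrix proteins. Ptgds, which encodes a prostaglandin D synthase abundant in the meninges, rose by 0.55 and 0.76. None of these 6 had its highest array at circadian time 0 in both cycles. The mean of the 10 endothelium and meninges markers was 0.10 above its neighbours at CT 48 and 0.24 at CT 24, and those arrays held the 7th and 8th highest of its 24 values (6.60 and 6.59, within a range of 6.23 to 6.74). This mean was added as a covariate after seeing these genes. Nr4a3 was then called both by the cosine (amplitude 0.28, adjusted p = 0.00556) and by the factor of 12 levels (0.89 between highest and lowest level, adjusted p = 0.00859). Nr4a1 was called by the cosine (0.20, adjusted p = 0.0376) but not by the factor (adjusted p = 0.107). With this covariate 11.7% of all genes were called by the cosine and 0.781% by the factor. The mean holds endothelial as well as meningeal markers and rose by less than each of the 6 genes above on both days. Whether tissue carried along adds to the rise was not tested.

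Immediate early genes that are induced together with NR4A genes were set beside them at the same time of day. Of the 24 such genes tested (against 1.2% of all genes), 1 had its highest array at circadian time 0 in both cycles, Gem, a small GTPase of the RGK family, with rises of 0.19 at CT 48 and 0.27 at CT 24. Fos, the classical AP-1 subunit, rose by 0.21 and 0.66, and Dusp1, a phosphatase of MAP kinases, by 0.17 and 0.37. No member of the list rose by 0.25 on both days, and the list's median was 0.03 at CT 48 and 0.17 at CT 24, against medians of 0.00 and 0.01 over all genes tested. Fosb, another AP-1 subunit, showed 0.03 and -0.41. Elsewhere, 2 of 13 SCN genes and 1 of 8 tested endothelium and meninges markers rose by at least 0.25 on both days (0.566% of all genes). The highest array lay at circadian time 0 in both cycles for 2 of 21 tested upstream regulators, 1 of 10 tested partners and coregulators and 1 of those 8 markers. No SCN gene was among these (1.2% of all genes).

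**Figure D3:**
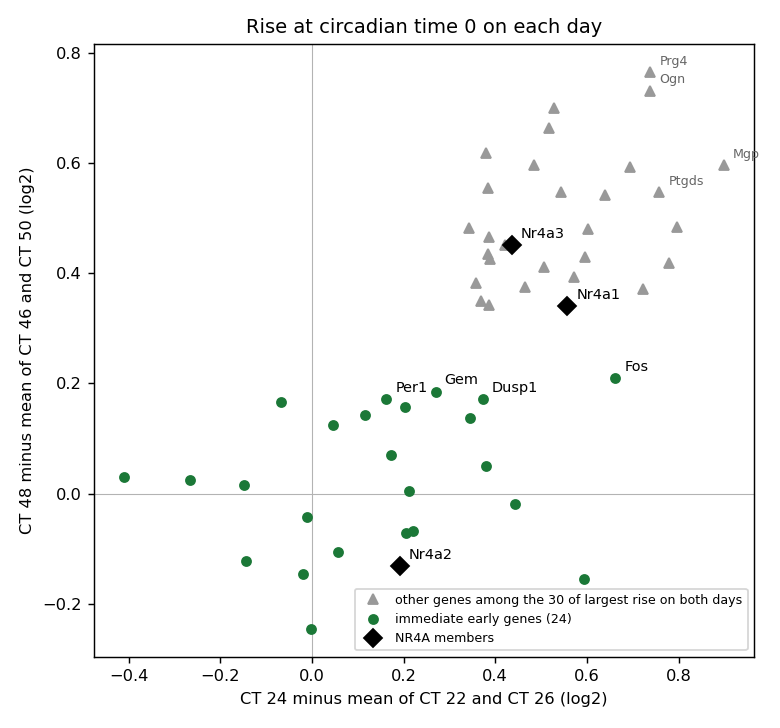
Rise at circadian time 0 over the mean of the arrays 2 h before and after, in log2 units, on the second day (vertical axis) and the first day (horizontal axis). Diamonds are the NR4A members, circles the 24 immediate early genes and triangles the other genes among the 30 of largest rise on both days; genes outside these sets are not drawn. Nr4a3 and Nr4a1 lie among the triangles, above every immediate early gene on the vertical axis, and Nr4a2 lies below 0 on the second day.

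The next comparison set the subjective day (circadian times 0 to 10, 12 arrays) against the subjective night (12 to 22, 12 arrays). It uses the same arrays as the rhythm test and is not independent of it. All 3 receptors had higher means by day, and none of the 3 differences passed. Nr4a3 averaged 6.34 ± 0.24 by day and 6.06 ± 0.21 by night (SD, n = 12 each), a difference of 0.28 ± 0.08 (SE, adjusted p = 0.0852, limma). Nr4a1 averaged 6.51 ± 0.21 by day and 6.29 ± 0.19 by night, a difference of 0.22 ± 0.08 (adjusted p = 0.124). Nr4a2 averaged 6.31 ± 0.14 by day and 6.20 ± 0.13 by night, a difference of 0.11 ± 0.05 (adjusted p = 0.282). The groups overlapped for each gene: 4, 3 and 4 of the 12 day arrays lay above the highest night array for Nr4a3, Nr4a1 and Nr4a2. Over all genes 1.17% were called, 0.652% higher by day and 0.516% higher by night. Nr4a3 passed when the array at CT 46 was left out (0.31, adjusted p = 0.0430). With the 3 narrow-range arrays left out, all of them night arrays, the differences were 0.21 for Nr4a3 (adjusted p = 0.206), 0.17 for Nr4a1 (0.283) and 0.14 for Nr4a2 (0.196).

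Between the days, no receptor's difference in mean level passed the test. The second cycle was above the first by 0.09 ± 0.07 for Nr4a1 (adjusted p = 0.751), by 0.07 ± 0.05 for Nr4a2 (adjusted p = 0.701) and by 0.02 ± 0.07 for Nr4a3 (adjusted p = 0.960; SE of limma's fit beside the 24-h terms). With limma, 0 of the 13956 genes passed (0%), and 1216 had an unadjusted p under 0.05. Of the 12 circadian times, 9, 9 and 8 had the higher value in the second cycle for Nr4a1, Nr4a2 and Nr4a3. With the mean of the anterior pituitary markers as a covariate the differences were 0.08, 0.02 and 0.03.

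The rhythm also did not differ detectably between the days. The difference between the cosines of the second and first cycle had a size of 0.12 ± 0.11 for Nr4a3, 0.07 ± 0.11 for Nr4a1 and 0.06 ± 0.08 for Nr4a2 (adjusted p of 1 after rounding for each, limma; 0 genes called, 0%, 338 at an unadjusted p under 0.05). A 12-h component beside the 24-h terms had an amplitude of 0.12 ± 0.05 for Nr4a3 (adjusted p = 0.264), 0.11 ± 0.05 for Nr4a1 (0.295) and 0.04 ± 0.04 for Nr4a2 (0.745). By that test 5 genes were called (0.0358%), and no receptor was among them.

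Nr4a3 and Nr4a1 moved together across the arrays. Over the 24 arrays Pearson's r was 0.77 (p = 1e-05, the smallest that 100000 permutations can give, adjusted over 3 pairs 3e-05) and Spearman's rho 0.76 (p = 3e-05). Within the second cycle r was 0.73 (p = 0.0068) and within the first 0.88 (p = 9e-05, 12 arrays each, permutation tests). Without the 2 arrays farthest from the median of Nr4a3, which were those at CT 24 and CT 48, r was 0.64 (permutation p = 0.00125) and rho 0.69. What the 24-h cosine left over was correlated too, with r = 0.66 (permutation p = 0.0006), and these residuals still hold the high values at circadian time 0 that both genes share. At a fixed time of day no correlation was detected: the differences, second minus first cycle, at the 12 circadian times gave r = 0.27 (permutation p = 0.392, adjusted over 3 pairs 0.893) and rho = 0.15 (p = 0.652), a comparison added after the results were seen. They had the same sign at 7 of 12 times, and without the 2 times farthest from the median of Nr4a3 r was 0.59 (permutation p = 0.0698). Given the array background, the partial r was 0.71 (permutation p = 0.00014). With the 3 narrow-range arrays left out, r was 0.73 (permutation p = 0.00015).

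For Nr4a2 neither correlation passed over the 24 arrays. Its r was 0.22 with Nr4a3 (permutation p = 0.294) and 0.34 with Nr4a1 (permutation p = 0.102), with adjusted p of 0.294 and 0.154. Spearman's rho was 0.24 with both (permutation p = 0.265 and 0.255). Within the second cycle the r of Nr4a2 was 0.30 with Nr4a3 and 0.06 with Nr4a1, and within the first 0.15 and 0.46. Without the 2 farthest arrays, CT 24 and CT 48 in both cases, r was 0.12 and 0.24. With the 3 narrow-range arrays left out, its r with Nr4a1 was 0.47 and passed (adjusted permutation p = 0.0496).

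Whether the rhythms of the receptors differ from each other was tested on the difference of 2 genes on the same array, by permuting the 24 times. The cosine of Nr4a3 minus Nr4a2 had an amplitude of 0.18 (permutation p = 0.0625, adjusted over 3 pairs 0.187). That of Nr4a3 minus Nr4a1 had 0.09 (p = 0.194, adjusted 0.292), and that of Nr4a1 minus Nr4a2 0.10 (p = 0.348, adjusted 0.348). So the call of Nr4a3 and the missing calls of the others do not show that their rhythms differ. For Nr4a3 minus Nr4a2 the test passed when the array at CT 50 was left out (amplitude 0.22, adjusted p = 0.0270).

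**Figure D4:**
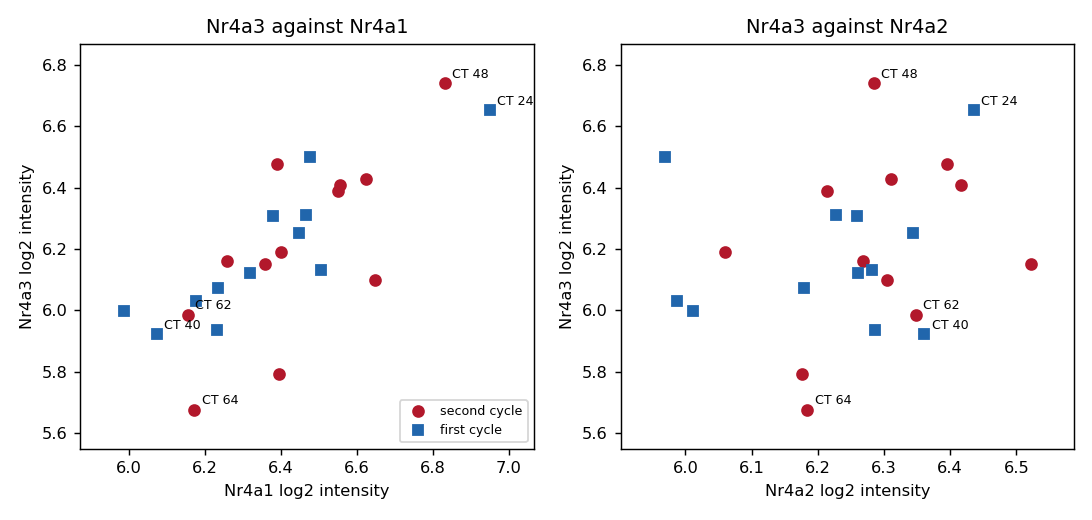
Log2 intensity of Nr4a3 against Nr4a1 (left) and against Nr4a2 (right) on each array; circles are the second cycle and squares the first, and the arrays at circadian time 0 and those of narrow range (CT 40, CT 62, CT 64) are named. The points rise together on the left (r = 0.77) and scatter on the right (r = 0.22).

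Genes with the most similar patterns were taken as the 5 with the highest Pearson r over the 24 arrays among 13953 tested genes, as a description. For Nr4a3 these were Rgs16, a brake on G protein signalling (r = 0.84), Pnmal2 (0.81), the phosphodiesterase gene Pde2a (0.81), the DNA ligase gene Lig3 (0.79) and the small GTPase gene Rasl11b (0.78). Without the arrays at CT 24 and CT 48 these 5 values lay between 0.78 and 0.855. Rgs16, Pde2a and Rasl11b were called rhythmic, with amplitudes of 0.73, 0.33 and 0.62 and peaks at 3.90, 3.78 and 4.13 h, while the fits of Pnmal2 and Lig3 did not pass.

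For Nr4a1 the gene of highest r was Dusp1, an immediate early gene itself (0.78). Trim8 (0.72), Nsg2, which encodes a neuronal endosomal protein (0.72), Cops7a, a subunit of the COP9 signalosome (0.71), and 4933431E20Rik (0.71) followed. Without the arrays at CT 24 and CT 48 these 5 values fell to between 0.56 and 0.67. For Nr4a2 they were Rap1gap, which switches off the GTPase RAP1 (0.77), the zinc finger genes Klf16 (0.69) and Maz (0.67), Trnp1 (0.67) and Tcl1b1 (0.66). The 3 sets of 5 shared no gene.

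Upstream of the receptors, 4 of 21 tested genes of the CREB, calcium, MEF2 and SRF pathways were called rhythmic by the cosine, against 7.65% of all genes. All 4 had fitted peaks before 6 h. The share of all called genes that peak then was not counted, so no shared timing with Nr4a3 can be read from this. Sik1, the kinase that holds back the CREB co-activators, had a fitted amplitude of 0.38 ± 0.03, peaking at 4.28 h (adjusted p = 3e-07, limma). Camk2a, a calcium and calmodulin dependent kinase, had 0.19 ± 0.04 and a peak at 3.31 h (adjusted p = 0.00726). Mef2c, a factor that binds at activity-regulated genes, had 0.19 ± 0.04 and a peak at 1.27 h (adjusted p = 0.0230). Elk1, the last of the 4, had 0.19 ± 0.05 and a peak at 1.75 h (adjusted p = 0.0332). Mef2c lost its call when the 3 narrow-range arrays were left out (adjusted p = 0.0742) or array background was a term of the fit (0.189). By the factor of 12 levels neither Camk2a (adjusted p = 0.105) nor Mef2c (0.338) passed, while Sik1 did. Creb1 itself had 0.13 ± 0.04 with a fitted peak at 21.3 h and did not pass (adjusted p = 0.0614), and the co-activator gene Crtc1 had 0.10 ± 0.04 (adjusted p = 0.128). The median amplitude of the 21 was 0.07, as over all genes tested (0.07).

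Among the immediate early genes, 5 of 24 were called (20.8%, against 7.65% of all genes), with peaks spread around the day: 1 before 6 h, 1 between 6 and 12 h, 1 between 12 and 18 h and 2 after 18 h. How the peaks of all called genes are spread was not counted. Nfil3, a repressor of the clock's output genes, had a fitted amplitude of 0.27 ± 0.04, peaking at 19.1 h (adjusted p = 0.000117, limma). Per1, both a clock gene and a CREB target, had 0.33 ± 0.05, peaking at 6.3 h (adjusted p = 0.000186), and Ier5 had 0.17 ± 0.04, peaking at 21.02 h (adjusted p = 0.0129, and 0.314 by the factor of 12 levels). Gem was the 1 that peaked before 6 h (0.24 ± 0.06 at 2.03 h, adjusted p = 0.0308). Fos (amplitude 0.06, adjusted p = 0.692), Egr1 (0.09, 0.483) and Arc (0.04, 0.699), the genes most used as marks of neuronal activity, did not pass. Their mean levels were 5.92, 6.37 and 6.69, with the filter at 5.52, and RMA compresses small changes of dim probe sets. Their missing calls do not show constant levels. The same limit holds for the missing calls of Nr4a1 and Nr4a2, whose mean levels were 6.40 and 6.25. Nr4a3 and Gem, which were called, had mean levels of 6.20 and 5.65. The median amplitude of the list was 0.09.

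Downstream and beside the receptors, 3 lists had 0 calls by limma's cosine test in its main setting. Over all genes 27.5% had an unadjusted p under 0.05 in this test, so the counts that follow are given against that share. Of 10 tested partners and coregulators 2 had an unadjusted p under 0.05, Sfpq, an RNA-binding protein (amplitude 0.10 ± 0.03, adjusted p = 0.0676), and Ncoa2, a nuclear receptor co-activator (0.08 ± 0.03, adjusted p = 0.164). The RXR genes Rxra, Rxrb and Rxrg had amplitudes of 0.03, 0.03 and 0.08. Of 14 tested genes known as targets or companions of NR4A2 in dopamine neurons 3 had an unadjusted p under 0.05, led by Dlk1 (0.18 ± 0.05, adjusted p = 0.0711) and Aldh1a1 (0.24 ± 0.08, adjusted p = 0.113). Aldh1a1 passed when the 3 narrow-range arrays were left out (0.36, adjusted p = 0.0324, limma). It also passed with a term for array background (0.395, adjusted p = 0.00887). Th, the rate-limiting enzyme of dopamine synthesis, had 0.12 ± 0.07 (adjusted p = 0.448). Of the hormone and steroid targets only 4 of 10 lay above the filter, and 2 of them had an unadjusted p under 0.05: Prl (0.90 ± 0.27, adjusted p = 0.0771), which is also among the pituitary markers that vary between arrays, and Nr5a1 (0.10 ± 0.04, adjusted p = 0.130). Array weights gave calls of Aldh1a1 (adjusted p = 0.0206, limma) and Sfpq (0.0187), and quantile normalisation gave one of Sfpq (0.0361). With the oligodendrocyte marker mean as a covariate, 24.3% of all genes were called. Sfpq, Dlk1, Aldh1a1, Prl and Nr5a1 were among these. Dlk1 also passed with the endothelium and meninges covariate (adjusted p = 0.0478).

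Among 30 other nuclear receptors tested, 5 were called (16.7%, against 7.65% of all genes). The REV-ERB genes Nr1d1 and Nr1d2, repressors of the clock, had amplitudes of 0.57 ± 0.05 and 0.19 ± 0.03 with peaks at 3.89 and 6.04 h, and Rora, their opponent at the same sites, had 0.35 ± 0.06 with a peak at 5.94 h (adjusted p = 3.48e-07, 0.00149 and 0.00186, limma; Nr1d2 did not pass by the factor of 12 levels, adjusted p = 0.0986). The amplitude of Nr4a3, 0.25, lay between those of Rora and Nr1d2. The glucocorticoid receptor gene Nr3c1 had 0.06 (adjusted p = 0.416).

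**Figure D5:**
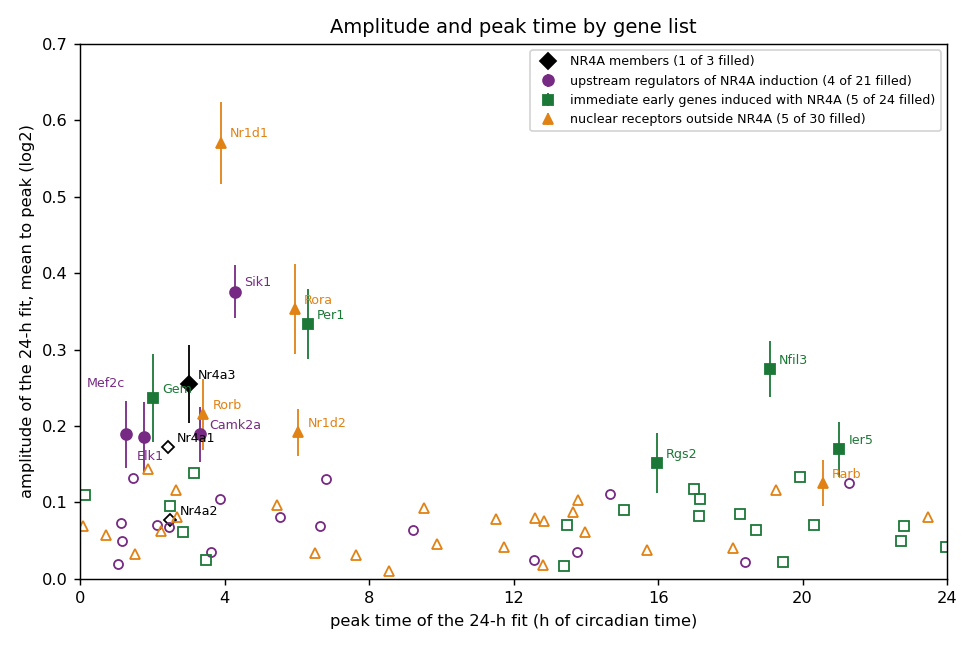
Amplitude (log2, mean to peak) against peak time of the 24-h fit for the NR4A members, the upstream regulators, the immediate early genes and the other nuclear receptors. Filled symbols passed the test and carry the SE of the amplitude; open symbols did not. Among the filled symbols, Nr4a3 (0.25 at 3.0 h) lies nearest in time to Camk2a, Rorb, Nr1d1 and Gem, followed by Elk1 and Sik1. Open symbols are spread over the whole day.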

How the data were processed

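RNA of the SCN was amplified, biotin-labelled and hybridised to 24 Affymetrix arrays, per the labels' protocols. The authors deposited 1 log2 intensity for each probe set and array. RMA (version 1.3.1.187) and Affymetrix Expression Console had been used to make them, per the submitters' processing notes. RMA compresses small changes of dim probe sets. The genome build used for them is not given in the sources used here. No detection calls were used, and the number of arrays limits the precision.

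Of 35556 probe sets, 21789 had 1 symbol in the platform annotation, 1621 several and 12146 were not listed, and 21698 matched RefSeq (GRCm38.p6, names only) by Entrez identifier. Each of 19938 genes was represented by its probe set of highest mean. Only genes whose mean reached the 30th percentile of all (log2 5.52) were tested.

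Fits used limma 3.58.1 in R 4.3.3 and were tested on simulated data. Errors are the spread around the fit, since each time has 1 array. Pools stand for mice, so the spread between single mice is not seen. The p-values of limma measure the spread around the fit, which mixes differences between pools, array noise and any misfit of the curve. Permutation tests used 100000 orders, or 20000 where 1 array was left out, in NumPy 2.4.6. Tests were two-sided, except that an amplitude or an F value was tested against larger ones. All 3 receptors, up to 3 called members of each pathway list by adjusted p (the 2 of smallest p where none was called) and the 5 most similar genes were named by rule. Other genes were chosen after their values were seen: Gem, Fos, Fosb, Dusp1, Creb1, Crtc1, Elk1, Egr1, Arc, Th, the RXR genes, Nr3c1, Rorb, Avp, Six6, Oxt, Pmch, Msmp, Ramp1, Ptgds and the matrix genes. The members and lists were chosen with earlier results of these data known. Alternatives covered filters, probe sets, normalisation, priors, array weights, covariates, the shape of the rhythm and arrays left out.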

Additional observations from a re-analysis of the deposited data

How the results depend on the processing

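All counts are genes called of those tested. For the 24-h rhythm (1067), the count was 534 with the array background covariate, 3387 with the oligodendrocyte covariate, 1638 with the endothelium and meninges covariate, 679 when the 3 arrays of narrow range (CT 40, CT 62, CT 64) were left out, 518 without those at CT 24 and CT 48, 170 at a threshold of 0.01 and 99 with a factor of 12 levels. With that factor it was 109, 33 and 56 when the meninges covariate, the background covariate or the loss of the arrays of narrow range was added. Leaving out single arrays gave 704 (CT 28) to 1440. Nr4a3 lost its call with the background covariate (amplitude 0.22), without the arrays of narrow range (0.22), at a threshold of 0.01 (0.25, adjusted p = 0.0105) and with the factor and the background covariate together (0.95 between highest and lowest level). Its amplitude without single arrays was 0.23 to 0.28. Nr4a1 was called with the oligodendrocyte covariate (0.19, adjusted p = 0.0207), with the meninges covariate (0.20) and without CT 26, its amplitude without single arrays being 0.14 to 0.20. Nr4a2 was called under none of these, with adjusted p from 0.155 to 0.785. The filter at the 50th percentile (log2 6.54) removed all 3 receptors.

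For day minus night (163), the count was 87 with no filter, 308 with array weights, 640 with the oligodendrocyte covariate, 91 without the arrays of narrow range and 100 without CT 24 and CT 48. Without single arrays it ranged from 64 (CT 50) to 345 (CT 44) and moved by over 1.5 times without CT 18, 20, 28, 32, 34, 36, 38, 44, 46, 50, 52, 54, 56 or 64. With the oligodendrocyte covariate Nr4a1 (0.25, adjusted p = 0.0496) and Nr4a3 (0.29, adjusted p = 0.0490) passed, and without single arrays the difference of Nr4a3 was 0.24 to 0.31. The change between cycles (0) had 5 calls with array weights, 66 with the background covariate and 0 to 1 (CT 54) without single arrays. The 12-h rhythm (5) had 8 calls at the 50th percentile, with median centring, a trended prior or array weights, 2 with quantile normalisation, 0 in the other settings and 0 to 9 without single arrays. The r of Nr4a1 and Nr4a2 passed without the arrays of narrow range (0.47). The amplitude of Nr4a3 minus Nr4a2 was 0.15 to 0.22 without single arrays. The causes were not tested. The labels number no replicates, so the cycles were paired by circadian time: with it as a block of 12 levels, the adjusted p of the change between cycles (limma) was 0.583 for Nr4a1 (0.09), 0.606 for Nr4a2 (0.07) and 0.9 for Nr4a3 (0.02). No called difference changed sign; the uncalled change of Nr4a3 between cycles was -0.01 without CT 48.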
